A study of Mus musculus with 19 samples.

Results

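This account covers stearic acid (SA) against its vehicle in cultured mouse adipocytes: the 4 arrays whose titles name SA treatment were set against the 4 titled control, out of 19 arrays, across 18820 genes. The cells were differentiated 3T3-L1, a mouse fibroblast line that turns into fat-storing adipocytes after a hormone cocktail with dexamethasone, a phosphodiesterase inhibitor and insulin. SA cells (n = 4) received 250 µM SA for 48 h from day 8 of differentiation. The 3 other acids were given at that dose and time: palmitic acid (PA, n = 4), palmitoleic acid (PMA, n = 4; the array titles write PMO) and oleic acid (OA, n = 3). Control cells (n = 4) received ethanol, the solvent, with 2% bovine serum albumin, the carrier that all groups shared. Every group, control included, was without serum from day 7 and stood in insulin. The array titles number biological replicates without saying whether they came from separate cultures, so p-values measure the spread between these samples, which may be technical. The culture is 1 cell line grown without other cell types, and each array holds RNA of a whole well, so fewer cells of a kind and less RNA per cell cannot be told apart.

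Stearic acid is a saturated fatty acid that adipocytes take up, activate to its coenzyme A ester, and store as triglyceride, desaturate or burn. Stearoyl-CoA desaturases place a double bond in it and so turn it into oleic acid, which makes SA and OA substrate and product of an enzyme adipocytes hold in abundance. PA is the saturated acid with a shorter chain, from which elongases make SA, and PMA is the desaturated form of PA. Saturated acids are known in many cell types for stress and inflammatory responses, which monounsaturated acids often temper.

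Levels are given as log2 RMA expression. Differences are SA minus control ± SE from limma with p-values adjusted over all genes by the Benjamini-Hochberg method. The threshold for a change was an adjusted p of 0.05. Medians of the SA chips lay between 5.24 and 5.32, and those of the control chips between 5.23 and 5.31. Adipocyte markers sat high in both groups: 15 of 17 were measured, all 15 lay above the median gene (5.97), and their mean per array ran from 11.13 to 11.24 with SA and from 11.11 to 11.16 in control cells. In a longer list 20 adipocyte markers were measured and 0 passed, from Adig at -0.41 to Plin1 at 0.20, with a median difference of 0.03. Markers of preadipocytes and fibroblasts averaged 9.90 to 9.92 with SA and 9.81 to 9.88 in control cells, ranges that did not overlap, although 0 of the 10 measured passed. Macrophage markers averaged 4.62 to 4.69 with SA and 4.66 to 4.76 in control cells, with 1 of 8 above the median gene, and endothelial markers averaged 4.42 to 4.59 and 4.42 to 4.53, with 0 of 6 above it.

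SA changed few genes, and by little. It raised 20 genes, among them the splicing kinase Clk1, the interleukin-2 receptor chain Il2ra, the mTOR inhibitor Ddit4 and the transcription factor Stat5a, and lowered 11, among them the early transcription factor Egr1, the acute-phase protein Lcn2 and the desaturase Scd3. These 31 genes are 0.165% of the 18820 tested (0.106% higher and 0.0584% lower). Their differences had a median size of 0.34, from 0.25 to 0.65, and 3 of them exceeded a 1.5-fold change: Egr1, Lcn2 and Prg4, all lower with SA. Beyond these, 2 genes chosen after their values were seen exceeded it without passing, the small nuclear RNA gene Rnu2-10 (-0.59 ± 0.18, adjusted p = 0.267) and the Cajal-body RNA gene Scarna13 (0.78 ± 0.20, adjusted p = 0.127). The value of Rnu2-10 is that of the brightest of its 11 probe sets, and its SA and control arrays overlapped. The plot of all genes shows the narrow spread around 0.

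**Figure D1:**
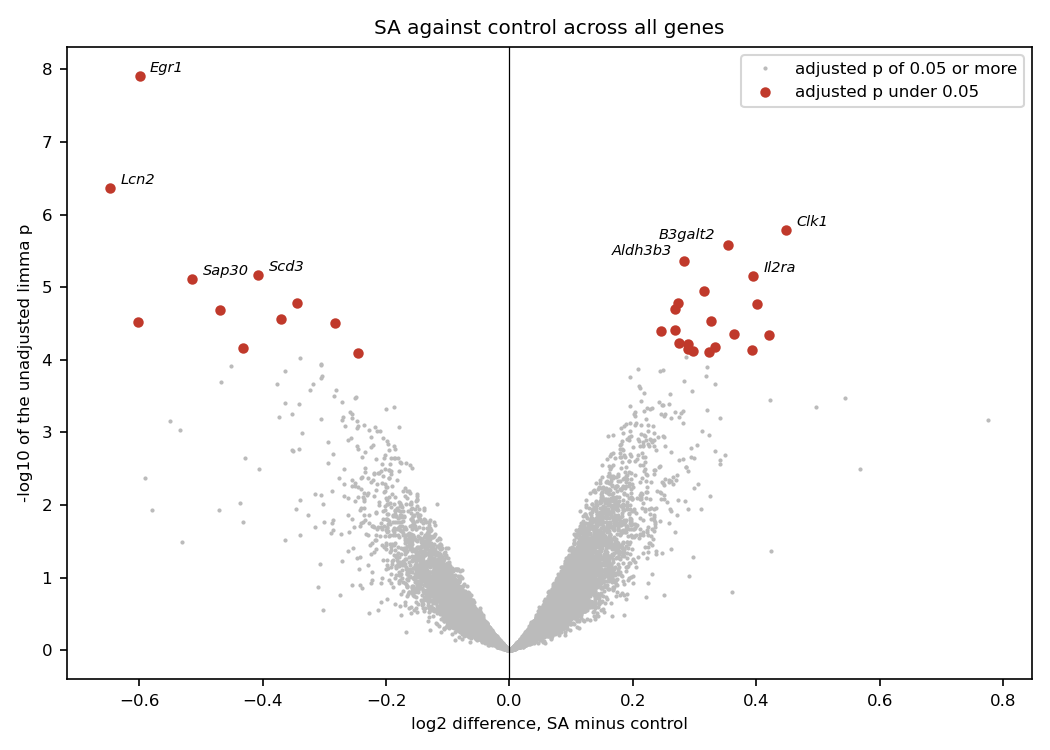
Each point is 1 of 18820 genes: log2 difference (SA minus control) on the horizontal axis, -log10 of the unadjusted limma p on the vertical axis. The 31 genes with an adjusted p under 0.05 are red, and the 8 with the smallest p are named; Egr1 stands highest, at -0.60.

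Across all genes, 1605 (8.53%) had an unadjusted p under 0.05, 1062 of them higher and 543 lower with SA. The 4 SA arrays lay wholly above or below the 4 control arrays for 1390 genes, or 7.39% (4.88% higher and 2.50% lower), and for all 31 genes that passed. The middle of the distribution stood at 0.02, with 58.1% of genes above 0. When the arrays were shifted to one median, 10 higher and 18 lower genes passed (28, of which 19 were among the 31), and with only the 8 arrays of the comparison in the fit 13 higher and 18 lower (31, of which 20 were shared), so the split of 20 higher against 11 lower depended on both choices. All 31 genes had a mean level in the upper part of the chip, at percentile 54.5 of all genes or above.

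The count moved with single arrays. It was 11, 5, 4 and 9 with SA replicate 1, 2, 3 or 4 left out, and 9, 9, 15 and 4 with control replicate 1, 2, 3 or 4 left out. Arrays of other groups, which enter only through the shared spread, moved it too: to 59 with PA replicate 2 left out, 18 with PMA replicate 3 left out, and 15 and 18 with OA replicate 1 or 3 left out. Egr1 and Lcn2 were the 2 genes that passed in each of these 19 fits. Clk1 passed in 18 of them, B3galt2 in 17, Sap30 in 16, Aldh3b3 and Il2ra in 15, and Scd3, Stat5a, Arl14ep and Itih4 in 13. The others ranged from 12 (Gask1b, Bcat1 and Gm10548) to 2 (Cnih4). In the 8 fits that lacked an SA or control array, 13 genes passed in none: Ddit4, Med21, Abhd6, Pmepa1, Ptgfr, Fam171b, Cox6a2, Npnt, Slit2, Fmod, Armcx2, Gtf2h1 and Cnih4. Prg4, Gask1b, Bcat1, Acta2, Pik3cb and Mgp passed in 1 of the 8. No difference of the 31 changed sign in any fit.

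**Figure D2:**
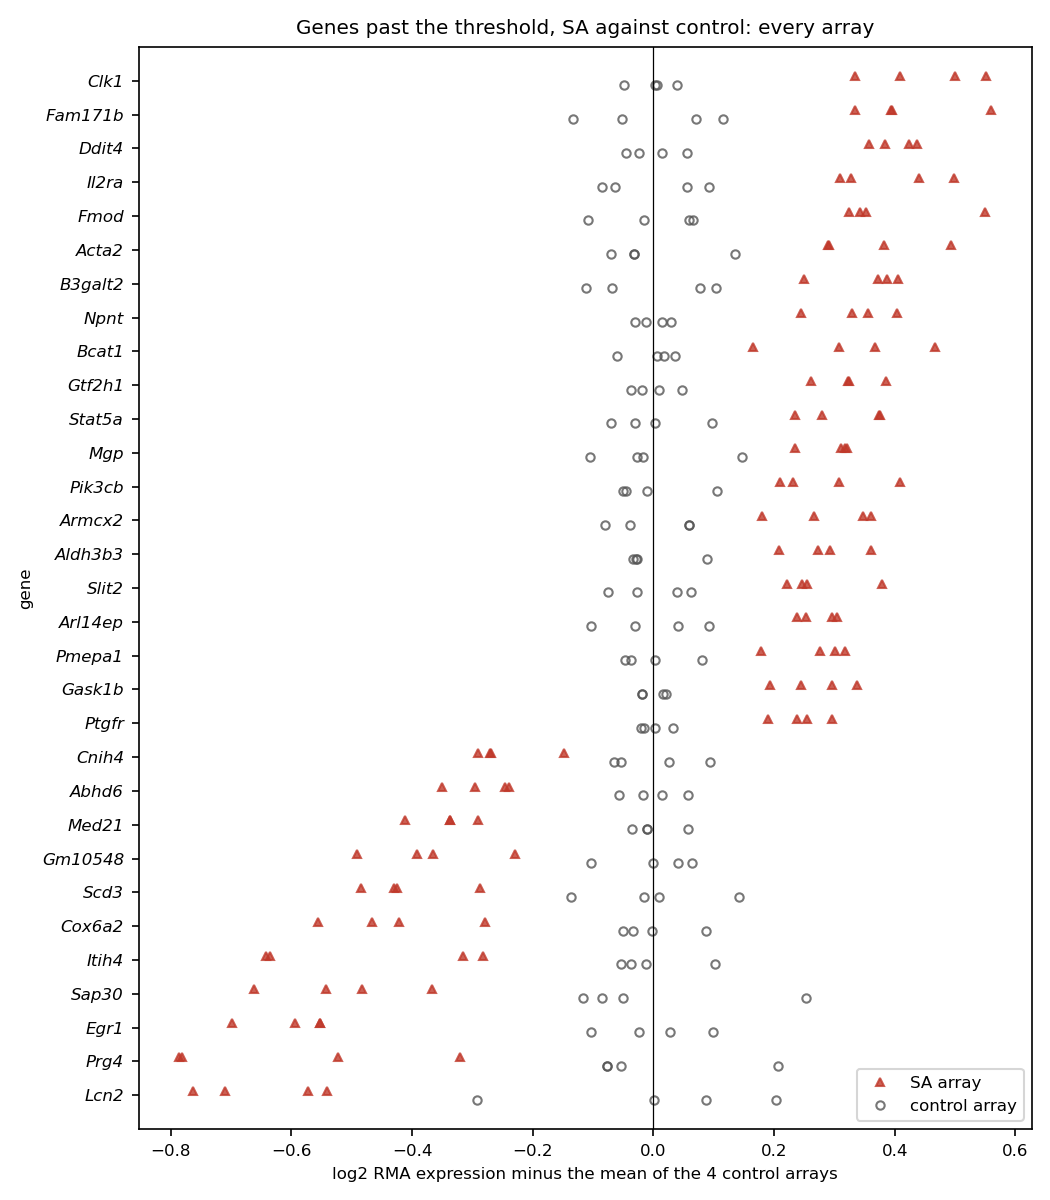
Log2 RMA expression of the 31 genes that passed on every array, as the distance from the mean of the 4 control arrays, 1 row per gene; triangles are SA arrays and open circles control arrays. In every row the 4 triangles lie on 1 side of all 4 circles.

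Promoter sequence was available for 23 of the 31 genes, in 29 windows of 300 bases that run from 250 before to 50 after a transcription start (RefSeq, GRCm38.p6). A pair of genes that fell, Lcn2 and Scd3, and a pair that rose, Ddit4 and Fmod, are shown as examples of the acute-phase, desaturase, stress and matrix genes among the 31. Capitals mark motifs found on either strand: the C/EBP palindrome TTGCNCAA and the steroid receptor palindrome ACANNNTGT in Lcn2, that same receptor motif in Scd3, and CCAAT or its reverse complement in Ddit4 and Fmod. The windows are chr2:32387690-32387989 on the minus strand (Lcn2), chr19:44203038-44203337 on the plus strand (Scd3), chr10:59951721-59952020 on the minus strand (Ddit4) and chr1:134037004-134037303 on the plus strand (Fmod), each printed 5′ to 3′.
Lcn2: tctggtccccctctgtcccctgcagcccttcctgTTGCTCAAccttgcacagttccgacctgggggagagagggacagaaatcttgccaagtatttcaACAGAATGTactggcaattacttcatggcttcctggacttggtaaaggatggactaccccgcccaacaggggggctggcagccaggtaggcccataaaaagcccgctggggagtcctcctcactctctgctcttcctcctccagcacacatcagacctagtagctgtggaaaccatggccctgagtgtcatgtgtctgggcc
Scd3: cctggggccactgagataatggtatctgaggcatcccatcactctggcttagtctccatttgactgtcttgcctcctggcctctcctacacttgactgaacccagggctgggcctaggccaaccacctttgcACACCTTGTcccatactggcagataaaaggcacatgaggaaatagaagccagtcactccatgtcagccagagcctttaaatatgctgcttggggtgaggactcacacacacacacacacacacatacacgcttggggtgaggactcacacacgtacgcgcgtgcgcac
Ddit4: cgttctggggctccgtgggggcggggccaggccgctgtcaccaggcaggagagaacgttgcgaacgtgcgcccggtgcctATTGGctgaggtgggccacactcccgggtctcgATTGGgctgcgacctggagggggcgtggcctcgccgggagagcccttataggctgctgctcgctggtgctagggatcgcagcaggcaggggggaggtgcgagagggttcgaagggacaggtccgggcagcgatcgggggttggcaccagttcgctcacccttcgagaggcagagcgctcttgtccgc
Fmod: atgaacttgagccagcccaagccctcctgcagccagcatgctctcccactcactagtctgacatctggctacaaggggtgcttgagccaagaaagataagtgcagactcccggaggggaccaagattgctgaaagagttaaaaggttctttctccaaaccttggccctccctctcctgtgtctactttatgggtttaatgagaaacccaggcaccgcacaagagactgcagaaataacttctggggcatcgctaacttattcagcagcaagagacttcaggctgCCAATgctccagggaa

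These motifs were about as frequent in the windows of the 31 genes as in all 32851 windows. CCAAT stood in 31.0% of them and 37.4% of all, TATAAA in 10.3% and 13.6%, TTGCNCAA in 3.45% and 2.94%, and ACANNNTGT in 6.90% and 6.85%. The EGR motif GCGTGGGCG was in 0 of the 29 windows and 0.612% of all. The first motif of Lcn2 began 216 bases before its start and the second 152 bases before it, the motif of Scd3 lay 118 bases before its start, and those of Ddit4 170 and 137 bases before. A match describes letters in the window, and no match says only that these letters were not there.

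The gene with the smallest p was Egr1 (probe set 10454782), a zinc-finger transcription factor switched on within minutes by growth-factor signals through ERK. Its level was 7.79, 7.75, 7.64 and 7.79 on the SA arrays, against 8.44, 8.24, 8.32 and 8.37 on the control arrays. No SA array reached the lowest control array, and the difference was -0.60 ± 0.07, 1.51-fold lower with SA (adjusted p = 2.3e-04, limma). Of 24 measured immediate early genes Egr1 alone passed, the median difference was -0.06 beside 0.02 for all genes, and the groups were separated for 5 members, 4 of them lower with SA (2.50% of all genes were separated downward). Ier2, another early gene, was at -0.35 ± 0.10 (adjusted p = 0.181) and Zfp36, which destabilises inflammatory mRNAs, at -0.19 ± 0.07 (adjusted p = 0.347), whereas Jun, an AP-1 subunit, was at 0.13 ± 0.05 (adjusted p = 0.354). Genes that feed back on ERK signalling had 0 of 18 members past the threshold, a median of -0.03 and 4 members with all SA arrays below all control arrays, beside the same 2.50% of all genes. The lowest of them was Dusp6, the ERK phosphatase, at -0.25 (adjusted p = 0.137), followed by the receptor-tyrosine-kinase inhibitor Spry2 at -0.19 (adjusted p = 0.115).

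Further transcription regulators changed in both directions. Stat5a, which carries growth hormone and prolactin signals to the nucleus and promotes fat cell formation, measured 8.76, 8.90, 8.80 and 8.90 with SA, against 8.62, 8.49, 8.53 and 8.45 in control cells. The lowest SA array exceeded the highest control array, and Stat5a rose by 0.32 ± 0.06 (adjusted p = 0.0234). Il2ra, the alpha chain of the interleukin-2 receptor and a target of STAT5 in T cells, measured 9.10, 9.04, 8.91 and 8.93 with SA, against 8.69, 8.53, 8.65 and 8.51 in control cells. It rose by 0.39 ± 0.07 (adjusted p = 0.0184). Sap30, a subunit of the Sin3 corepressor complex, fell to 6.78, 6.72, 6.90 and 6.60 with SA, against 7.15, 7.18, 7.22 and 7.52 in control cells (-0.51 ± 0.09, adjusted p = 0.0184). Parts of the general transcription machinery moved in opposite directions: Med21, a Mediator subunit, was lower by -0.34 ± 0.06 (adjusted p = 0.0267) and Gtf2h1, a subunit of TFIIH, higher by 0.32 ± 0.07 (adjusted p = 0.0491).

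Clk1, a kinase that phosphorylates the SR proteins of the spliceosome, measured 8.63, 8.53, 8.68 and 8.46 with SA, against 8.13, 8.13, 8.08 and 8.16 in control cells. It had the highest difference of the 20 genes that passed upward, at 0.45 ± 0.07 (adjusted p = 0.0101) and every SA array above every control array. Its list of splicing kinases and SR proteins had no other member of 25 past the threshold, and a median of 0.04. The related kinase Clk4 was at 0.18 ± 0.06 (adjusted p = 0.352).

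The genes of 3 secreted proteins of defence and lubrication fell with SA. Lcn2 (probe set 10481627), a lipocalin released by adipocytes in the acute phase that binds bacterial iron carriers, measured 8.53, 8.57, 8.39 and 8.34 with SA, against 9.31, 9.19, 8.81 and 9.11 in control cells. Control replicate 3 was the lowest of its group and still above every SA array, and the difference of -0.65 ± 0.09 (1.57-fold lower, adjusted p = 0.00404) was the largest of the 31. Prg4, the joint lubricant lubricin, measured 8.08, 7.88, 7.62 and 7.61 with SA, against 8.34, 8.61, 8.32 and 8.32 in control cells (-0.60 ± 0.11, adjusted p = 0.0329). Itih4, an acute-phase plasma protein, fell to 7.62, 7.58, 7.26 and 7.26 with SA, against 8.00, 7.86, 7.89 and 7.85 in control cells (-0.47 ± 0.09, adjusted p = 0.0278). For both, SA replicates 3 and 4 were lower than replicates 1 and 2.

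The inflammatory list as a whole did not move one way. Lcn2 and Itih4 were its 2 members of 36 that passed, both lower, and its median was -0.02. Its highest member was Ccl5, a chemokine for T cells and monocytes, at 6.55, 6.60, 6.29 and 6.46 with SA, against 6.11, 5.80, 5.78 and 6.04 in control cells. Those groups did not overlap, and the difference of 0.54 did not pass (adjusted p = 0.103). The secreted inflammatory signals Il6 and Ccl2 were at -0.02 ± 0.09 (adjusted p = 0.982) and 0.13 ± 0.09 (adjusted p = 0.768). Il6 was dim, at 4.44 with SA and 4.46 in control cells, below the median gene (5.97). The Toll-like receptor and NF-kB list had 0 of 29 members past the threshold and a median of 0.00, and the interferon-stimulated list 0 of 32 and a median of 0.00. Among interferon-stimulated genes Znfx1, an RNA helicase of antiviral defence, was at -0.32 ± 0.07 (adjusted p = 0.0821), while its dimmer probe set stood on the other side of 0, at 0.09 ± 0.04 (unadjusted p = 0.054). Usp18, which removes ISG15 from proteins, was at 0.31 ± 0.10 (adjusted p = 0.288).

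Among enzymes of lipid metabolism, Scd3 fell. It is a mouse isoform of the stearoyl-CoA desaturases and measured 8.71, 8.52, 8.57 and 8.57 with SA, against 9.01, 8.86, 9.14 and 8.98 in control cells (-0.41 ± 0.07, 1.33-fold lower, adjusted p = 0.0184). The main adipocyte isoforms, Scd1 and Scd2, did not pass. Their levels lay near the highest value of any probe set (13.29), and whether differences are compressed there was not tested. Scd1 averaged 12.93 ± 0.04 with SA and 12.88 ± 0.03 in control cells (SD, n = 4 each), a difference of 0.05 with a 95% interval from -0.05 to 0.14, and Scd2 averaged 12.40 ± 0.04 with SA and 12.34 ± 0.01 in control cells, with an interval from -0.04 to 0.15. Of the 23 desaturases and elongases Scd3 alone passed, and the list's median was 0.01. The desaturase Fads2 was at 0.01 ± 0.05 (adjusted p = 0.99), and the elongases Elovl5 and Elovl6 at 0.04 ± 0.06 (adjusted p = 0.922) and -0.05 ± 0.06 (adjusted p = 0.901).

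Abhd6, a hydrolase of monoacylglycerol, fell as well, to 8.47, 8.53, 8.42 and 8.52 with SA, against 8.82, 8.71, 8.78 and 8.75 in control cells (-0.28 ± 0.05, adjusted p = 0.0329). Aldh3b3, of the aldehyde dehydrogenase family, rose to 10.82, 10.84, 10.91 and 10.75 with SA, against 10.63, 10.52, 10.51 and 10.52 in control cells (0.28 ± 0.05, adjusted p = 0.0164). Aldh3b3 was the 1 gene of the 31 with a further probe set, and the dimmer one stood at 0.30 ± 0.15 (unadjusted p = 0.0572). Its call ended when a gene's probe sets were averaged (adjusted p = 0.138). Near the threshold lay Cers4, a ceramide synthase that takes long acyl chains, with 10.99, 11.10, 11.05 and 11.10 for SA against 10.83, 10.85, 10.84 and 10.74 for control (0.24 ± 0.05, adjusted p = 0.0664). Plin1, which coats lipid droplets and gates lipolysis, was at 0.20 ± 0.04 (adjusted p = 0.0739), with 11.59 as the lowest SA value and 11.47 as the highest control value.

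Lists of fat synthesis, storage and oxidation held no gene that passed, and the medians of 5 lipid lists lay slightly above that of all genes. The median was 0.07 for de novo lipogenesis (18 measured), with the groups separated upward for 5 members, and 0.05 for triglyceride synthesis, droplets and lipolysis (28), with 7. It was 0.07 for mitochondrial fatty acid oxidation (22), with 7, and 0.07 for PPAR targets (22), with 8. Cholesterol synthesis and uptake (20) had a median of 0.08 and 7 such members. Over all genes 4.88% were separated upward and 2.50% downward, and in none of these 5 lists was any member separated downward. Median levels of these lists ran from 9.53 to 10.33, beside 5.97 for all genes. Bright genes may separate more often, and no share at like level was computed, for these or for the other lists and the panel. The median difference of all genes was 0.02, and -0.01 when the arrays were shifted to one median. The lists share members, and members of a pathway are not independent of each other. Further lipid lists also held no gene that passed. The median was 0.02 for fatty acid uptake, binding and activation (15), with 1 member separated upward, and 0.03 for peroxisomal oxidation (18), with 2. It was 0.05 for LXR targets and sterol efflux (15), with 1. Ceramide and sphingolipid synthesis (28) had a median of 0.00, with 4 members separated upward and 2 downward.

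Individual members show how small the shifts were. Oxsm, a mitochondrial enzyme of fatty acid synthesis, was at 0.25 ± 0.06 (adjusted p = 0.113), Hadhb, a subunit of the trifunctional protein of beta-oxidation, at 0.21 ± 0.07 (adjusted p = 0.279) and Sqle, squalene epoxidase of sterol synthesis, at 0.22 ± 0.06 (adjusted p = 0.133). Cpt1a, which admits acyl chains to mitochondria, was at 0.15 ± 0.05 (adjusted p = 0.346), and Cidea, a droplet protein, at 0.31 ± 0.08 (adjusted p = 0.144). Of a panel of 30 lipid, adipocyte and stress genes 28 were measured and 0 passed, from Pdk4, which spares glucose, at -0.12 to Plin1 at 0.20. Plin2, the droplet coat that follows lipid loading in many cells, was at -0.02 ± 0.05 (adjusted p = 0.973), Angptl4, an inhibitor of lipoprotein lipase, at 0.05 ± 0.05 (adjusted p = 0.889), Cd36, the fatty acid transporter, at -0.02 ± 0.06 (adjusted p = 0.972) and Fabp4, the adipocyte fatty acid binding protein, at -0.03 ± 0.05 (adjusted p = 0.935). The transporters Slc27a1 and Slc2a4 were at 0.02 and 0.03, Srebf1 and Fasn of fat synthesis at 0.06 each, the lipases Pnpla2 and Lipe at 0.06 each, and Dgat1 and Dgat2, which make triglyceride, at 0.12 each. The adipocyte transcription factors Pparg and Cebpa were at 0.10 each, the hormones adiponectin (Adipoq) and leptin (Lep) at 0.06 and 0.17, and Sptlc2, of the first step of sphingolipid synthesis, at -0.04. The SA arrays lay wholly above the control arrays for 5 of the 28 panel genes, beside 4.88% of all genes: Plin1, Cpt1a, Dgat1, Dgat2 and Adipoq.

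**Figure D3:**
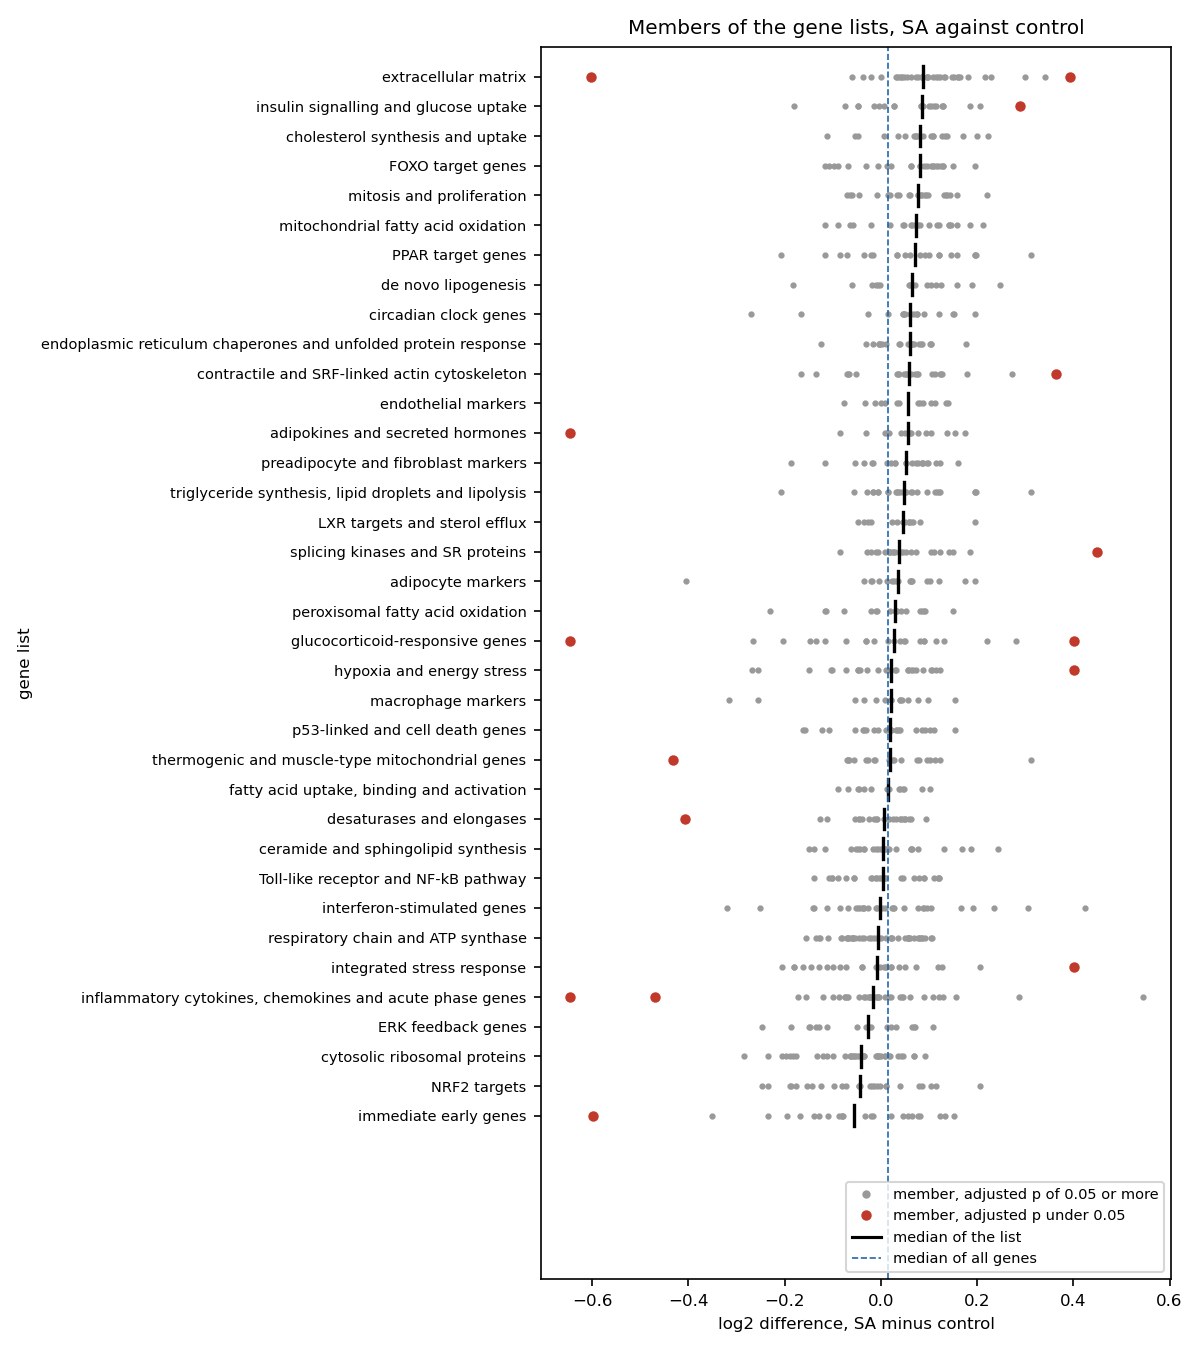
Log2 difference (SA minus control) of the measured members of 36 gene lists, 1 row per list in the order of the medians, with the list median as a black bar and the median of all genes (0.02) as a dashed line. Red points passed the threshold, as did 0.165% of all genes. At least 1 red point is in 12 lists, and most points lie within 0.2 of 0.

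Ddit4, which restrains mTORC1 and is induced by glucocorticoids, hypoxia and the integrated stress response, rose tightly: 9.81, 9.84, 9.88 and 9.89 with SA, against 9.41, 9.47, 9.43 and 9.51 in control cells (0.40 ± 0.07, adjusted p = 0.0267). The SD was 0.04 in either group, and the groups did not overlap. In the integrated stress response Ddit4 was the 1 member of 28 past the threshold and the median was -0.01, with Chac1, a glutathione-degrading enzyme, at -0.21 ± 0.07 (adjusted p = 0.283) and Trib3, a pseudokinase induced by stress, at -0.18 ± 0.07 (adjusted p = 0.366). In the hypoxia list it was 1 of 26 (median 0.02) and in the glucocorticoid list 1 higher, beside Lcn2 as 1 lower, of 23 (median 0.03). Chaperones of the endoplasmic reticulum and genes of the unfolded protein response had 0 of 24 past the threshold and a median of 0.06, and the chaperone Hspa5 was at -0.03 ± 0.05 (adjusted p = 0.93).

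Pik3cb, a catalytic subunit of PI3-kinase, was at 8.43, 8.35, 8.33 and 8.53 with SA, against 8.11, 8.07, 8.22 and 8.07 in control cells (0.29 ± 0.06, adjusted p = 0.048), the 1 member of 24 of the insulin list that passed. Ptgfr, the prostaglandin F receptor, whose ligand restrains fat cell formation, was at 8.83, 8.82, 8.87 and 8.77 with SA, against 8.61, 8.56, 8.58 and 8.56 in control cells (0.25 ± 0.05, adjusted p = 0.0375). Pmepa1, a TGF-beta target that dampens that pathway, rose by 0.27 ± 0.05 (adjusted p = 0.0375). Bcat1, the cytosolic enzyme that transfers the amino group of branched-chain amino acids, was at 8.35, 8.05, 8.19 and 8.25 with SA, against 7.82, 7.90, 7.89 and 7.92 in control cells (0.33 ± 0.06, adjusted p = 0.0329), with SA replicate 2 nearest to the controls.

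Fmod, the collagen-binding proteoglycan fibromodulin, measured 6.40, 6.61, 6.38 and 6.41 with SA, against 6.12, 6.12, 6.04 and 5.95 in control cells (0.39 ± 0.08, adjusted p = 0.0483). Acta2, smooth muscle actin, measured 9.52, 9.32, 9.32 and 9.41 with SA, against 9.17, 9.00, 8.96 and 9.00 in control cells (0.36 ± 0.07, adjusted p = 0.0389). Npnt, an integrin ligand of basement membranes, rose by 0.33 ± 0.07 (adjusted p = 0.0483), Mgp, an inhibitor of calcification, by 0.30 ± 0.06 (adjusted p = 0.0483) and Slit2, a secreted guidance cue, by 0.28 ± 0.06 (adjusted p = 0.048).

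Of 41 extracellular matrix genes Fmod passed higher and Prg4 lower, with a median of 0.09 and 37 members above 0. The groups were separated upward for 15 members (all genes 4.88%) and downward for 1. Collagen chains were within 0.2: Col5a3 at 0.18 ± 0.05 (adjusted p = 0.137), Col6a1 at 0.16 ± 0.04 (adjusted p = 0.153) and Col1a1 at 0.12 ± 0.05 (adjusted p = 0.51). Preadipocyte and fibroblast markers, several of which are matrix genes themselves, had a median of 0.05 over the 23 measured genes of their list and none past the threshold, and their part in the matrix values was not tested. In the contractile list Acta2 was the 1 member of 26 that passed (median 0.06), with the focal adhesion protein Vcl at 0.18 ± 0.05 (adjusted p = 0.192).

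The other genes that passed were spread over functions. B3galt2, a galactosyltransferase of the Golgi, measured 8.75, 8.76, 8.73 and 8.61 with SA, against 8.44, 8.25, 8.29 and 8.46 in control cells (0.35 ± 0.06, adjusted p = 0.0123). Fam171b, a membrane protein, rose by 0.42 ± 0.08 (adjusted p = 0.0389), the armadillo-repeat protein Armcx2 by 0.29 ± 0.06 (adjusted p = 0.0483), Arl14ep, an effector of a small GTPase, by 0.27 ± 0.05 (adjusted p = 0.0267) and the Golgi protein Gask1b by 0.27 ± 0.05 (adjusted p = 0.0278). Cox6a2, the muscle-type form of a cytochrome oxidase subunit, fell to 7.06, 7.20, 6.93 and 7.02 with SA, against 7.48, 7.45, 7.43 and 7.57 in control cells (-0.43 ± 0.09, adjusted p = 0.0483). Cnih4, which helps receptors leave the endoplasmic reticulum, was at -0.25 ± 0.05 (adjusted p = 0.0496), and Gm10548, listed in RefSeq as a transcribed pseudogene, at -0.37 ± 0.07 (adjusted p = 0.0329). A probe set of a pseudogene may also bind RNA of related genes, so its identity is uncertain.

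The lists of ribosomal proteins and of NRF2 targets, which detoxify, had medians below that of all genes and no member past the threshold. Of 40 cytosolic ribosomal proteins 0 passed, the median was -0.04, and 8 had all SA arrays below all control arrays (all genes 2.50%). Their mean per array ran from 10.53 to 10.60 with SA and from 10.61 to 10.64 in control cells. Rps24, a small-subunit protein, was the lowest at -0.28 ± 0.07 (adjusted p = 0.101). NRF2 targets had 0 of 27 past the threshold and a median of -0.04, with Abcc4, an export pump, at -0.25 ± 0.06 (adjusted p = 0.129) and Nqo1, a quinone reductase, at -0.23 ± 0.08 (adjusted p = 0.344).

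In all, 11 of the 31 genes belonged to at least 1 of the 36 lists, which covered 794 of the 18820 genes. The lists were written with earlier results of these data known, so this membership is no independent result. No gene passed in 24 of the lists, where 0.165% of all genes passed. Just beyond the threshold lay Apol6, of the apolipoprotein L family (0.29 ± 0.06, adjusted p = 0.053), and Trmt112, a partner of several methyltransferases (-0.34 ± 0.07, adjusted p = 0.0531). Naa20, the catalytic subunit of an N-terminal acetyltransferase, was at -0.31 ± 0.06 (adjusted p = 0.0631), and Mcee, methylmalonyl-CoA epimerase, at -0.36 ± 0.08 (adjusted p = 0.0664). The matrix protease gene Mmp11 was at -0.31 and the musculoskeletal gene Mustn1 at -0.45, while the matricellular gene Ccn5 was at 0.32, the kinase Mknk2 at 0.21 and the proteoglycan Ncan at 0.25, with adjusted p from 0.0631 to 0.0664. On the inner side the last genes to pass were Gtf2h1 (adjusted p = 0.0491) and Cnih4 (adjusted p = 0.0496). A separate fit of the probe sets that carry several symbols or none gave 17 of 14338 past the threshold (0.119%), namely 0 higher and 12 lower among 1881 with several symbols, and 4 higher and 1 lower among 12457 with none. That count was 4, 0 and 2 with SA replicate 1, 2 or 4 left out, 9 and 0 with control replicate 1 or 4 left out, 11 with PMA replicate 3, PMA replicate 4 or any OA array left out, and 0 with only the 8 arrays of the comparison.

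The structurally related acids were compared with SA directly at the same dose and time, as 3 pairs. SA differed from PA, which has a shorter chain and likewise no double bond, in 27 genes (0.143% of 18820; 19 or 0.101% higher and 8 or 0.0425% lower with SA; 26 when p-values were adjusted over the 3 pairs together). It differed from OA, which has the same length and a double bond, in 6 (0.0319%; 8 over the pairs), and from PMA, which differs in both, in 46 (0.244%; 17 or 0.0903% higher and 29 or 0.154% lower; 35 over the pairs). The typical SE was 0.07 in each pair, and the unadjusted p was under 0.05 for 2977, 451 and 1660 genes. These counts moved with single arrays. SA against PA gave 499 with PA replicate 1 left out and 9, 11 and 11 with SA replicate 2, SA replicate 1 or PA replicate 4 left out, and it gave 2 with only the arrays of both groups in the fit. Of the 19 arrays, PA replicate 2 had the highest chip median (5.43) and the largest SD from its group mean over all genes (0.15). It also had the lowest weight when arrays were weighted (0.29). With it left out, SA against PA gave 18.

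Against PA, Egr1 was at 7.79, 7.75, 7.64 and 7.79 with SA, against 8.46, 8.53, 8.27 and 8.33 with PA, the largest difference of the pair (-0.65 ± 0.07, adjusted p = 5.21e-05). Dusp6 was at 8.05, 7.87, 7.99 and 7.84 with SA, against 8.21, 8.33, 8.44 and 8.43 with PA (-0.41 ± 0.06, adjusted p = 0.00587). The long non-coding RNA 5730408K05Rik was lower by -0.57 ± 0.11 (adjusted p = 0.0341). Chchd10, a mitochondrial cristae protein, was lower by -0.52 ± 0.09 (adjusted p = 0.0194), and Bbc3, the pro-apoptotic PUMA, by -0.41 ± 0.08 (adjusted p = 0.0422). Among genes higher with SA, Ogn, the small proteoglycan osteoglycin, was at 9.57, 9.69, 9.67 and 9.44 with SA, against 9.08, 8.91, 9.21 and 9.11 with PA (0.52 ± 0.08, adjusted p = 0.00587). P4ha3, a collagen prolyl hydroxylase subunit, was at 7.46, 7.41, 7.44 and 7.54 with SA, against 6.94, 7.06, 6.94 and 7.01 with PA (0.48 ± 0.06, adjusted p = 0.00133), and Gys2, the liver-type glycogen synthase, was higher by 0.53 ± 0.10 (adjusted p = 0.0198). Cpa5, a carboxypeptidase, was higher by 0.48 ± 0.09 (adjusted p = 0.0226).

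Against OA, the 6 genes were all higher with SA. Ccl5 was at 6.55, 6.60, 6.29 and 6.46 with SA, against 5.64, 5.68 and 5.36 with OA, and at 5.93 on average in control cells (SA minus OA 0.92 ± 0.14, adjusted p = 0.0116). Slc7a11, the cystine importer, was at 7.89, 7.73, 7.92 and 7.87 with SA, against 7.26, 7.35 and 7.03 with OA (0.64 ± 0.09, adjusted p = 0.00548). Ereg, an EGF-receptor ligand, differed by 0.53 ± 0.08 (adjusted p = 0.0139), Hmga2, a chromatin protein of growing cells, by 0.52 ± 0.09 (adjusted p = 0.0368), and Ptgs2, the inducible prostaglandin synthase, by 0.43 ± 0.08 (adjusted p = 0.0488). Of these 5 genes none passed for SA against control. OA minus control was -0.43 for Ptgs2 (adjusted p = 0.0103, limma) and -0.44 for Slc7a11 (adjusted p = 0.0193). SA minus control was -0.01 and 0.21 for that pair. For Ccl5, Ereg and Hmga2 SA minus control was 0.54, 0.20 and 0.30. OA minus control was -0.38, -0.33 and -0.22 for them, and none of these differences passed. The sixth was Bcat1, at 8.35, 8.05, 8.19 and 8.25 with SA, against 7.96, 7.75 and 7.75 with OA (0.39 ± 0.07, adjusted p = 0.0337). Adjusted over the pairs, 2 genes lower with SA joined them: Fmod (-0.46 ± 0.09, 0.0251 over the pairs) and Olfr553, an olfactory receptor gene chosen after its value was seen (-0.30 ± 0.06, 0.0282 over the pairs). With OA replicate 3 left out 0 genes passed, with SA replicate 1 left out 1 and with SA replicate 4 left out 2. The count was 3 with control replicate 3, control replicate 4 or PMA replicate 3 left out.

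Against PMA, Ccl5 was higher with SA by 0.95 ± 0.13 (adjusted p = 9.88e-04), Tnc, the matrix glycoprotein tenascin C, by 0.58 ± 0.10 (adjusted p = 0.00905) and Hmga2 by 0.54 ± 0.08 (adjusted p = 0.00402). BC023105, a pseudogene, was at 4.64, 4.83, 4.48 and 4.72 with SA, against 5.41, 5.69, 5.81 and 5.79 with PMA (-1.01 ± 0.09, adjusted p = 2.2e-06). Its level lay below that of the median gene, and its probe set, like that of Gm10548, may also bind RNA of related genes. The same holds for the transcribed pseudogene Gm5886, which was higher with SA by 0.52 ± 0.08 (adjusted p = 0.00454). Chchd10 was lower with SA by -0.72 ± 0.09 (adjusted p = 7.42e-04), Prg4 by -0.69 ± 0.11 (adjusted p = 0.00777), the macrophage lysosomal protein Cd68 by -0.58 ± 0.10 (adjusted p = 0.00808) and the angiotensin receptor Agtr2 by -0.57 ± 0.11 (adjusted p = 0.0191). The count of 46 was 6 with PMA replicates 1 and 4 left out, and 20, 28 and 29 with SA replicate 3, SA replicate 2 or PMA replicate 1 left out. Its split of 17 higher and 29 lower was 25 higher and 21 lower when the arrays were shifted to one median, and 29 and 24 after cyclic loess.

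**Figure D4:**
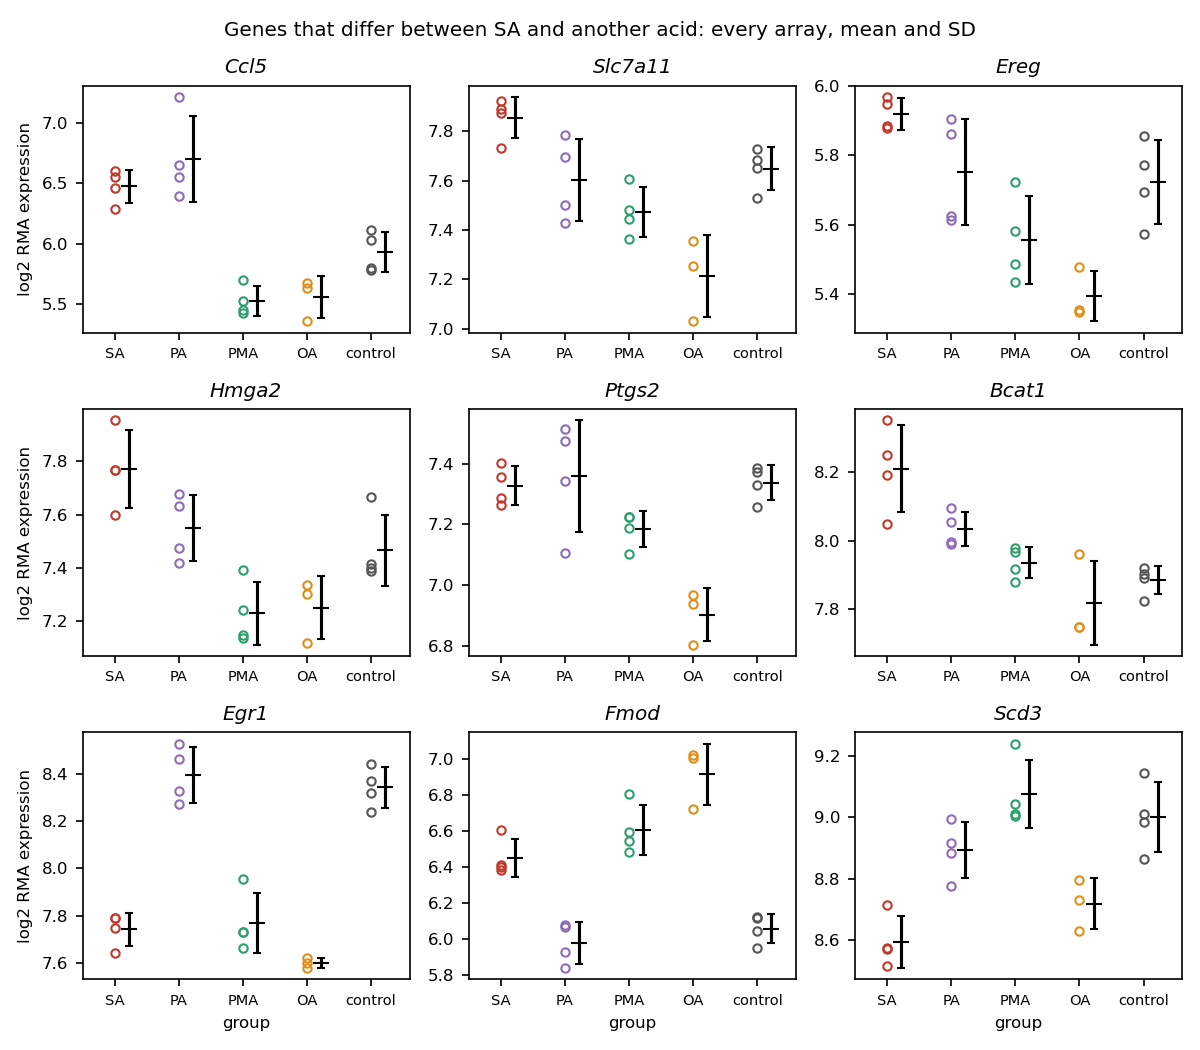
Log2 RMA expression per array of 9 genes, with SA at the left, PA, PMA and OA beside it and control at the right; each point is an array and the black bars are group means ± SD. Ccl5 stands between 6.29 and 6.60 with SA and between 5.36 and 5.68 with OA, and Egr1 between 7.64 and 7.79 with SA and between 8.27 and 8.53 with PA.

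The 31 genes of SA against control were also set beside the other acids. The same SA arrays chose them, so these values describe them and test nothing. In the direct contrasts 8 of them differed between SA and PA (Egr1, Clk1, B3galt2, Il2ra, Gask1b, Slit2, Npnt and Fmod), 1 between SA and OA (Bcat1) and 10 between SA and PMA (Lcn2, B3galt2, Scd3, Il2ra, Itih4, Prg4, Abhd6, Ptgfr, Fam171b and Cox6a2). Adjusted over the pairs, Lcn2 (0.059) and Cox6a2 (0.0677) no longer passed against PMA, which left 8, and Fmod passed against OA, which made 2. Egr1 averaged 7.74 with SA, 8.40 with PA, 7.77 with PMA, 7.60 with OA and 8.34 in control cells. Lcn2 averaged 8.46 with SA, 8.86 with PA, 8.90 with PMA, 8.07 with OA and 9.11 in control cells. Scd3 averaged 8.59 with SA, 8.89 with PA, 9.07 with PMA, 8.72 with OA and 9.00 in control cells. OA against control also passed, in the same direction, for all 31 but Scd3, Ddit4, Gask1b, Bcat1, Abhd6, Pmepa1, Ptgfr, Acta2, Fam171b, Pik3cb and Mgp. PMA against control did so for Egr1, Clk1, Sap30, Arl14ep, Med21, Gm10548, Armcx2, Fmod and Cnih4, and PA against control for none. These contrasts share the control arrays with SA against control, so the overlap is no independent result.

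For genes that did not pass between SA and OA, the intervals show which differences in log2 RMA expression the data allow. For SA minus OA the 95% interval reached from -0.01 to 0.29 for Egr1, from -0.28 to 0.03 for Scd3 and from -0.10 to 0.11 for Scd1. For Lcn2 it reached from 0.19 to 0.59 and so left out 0, with 8.53, 8.57, 8.39 and 8.34 for SA above 8.12, 7.96 and 8.13 for OA, but the adjusted p was 0.679. A p above the threshold does not show that the acids act alike.

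**Figure D5:**
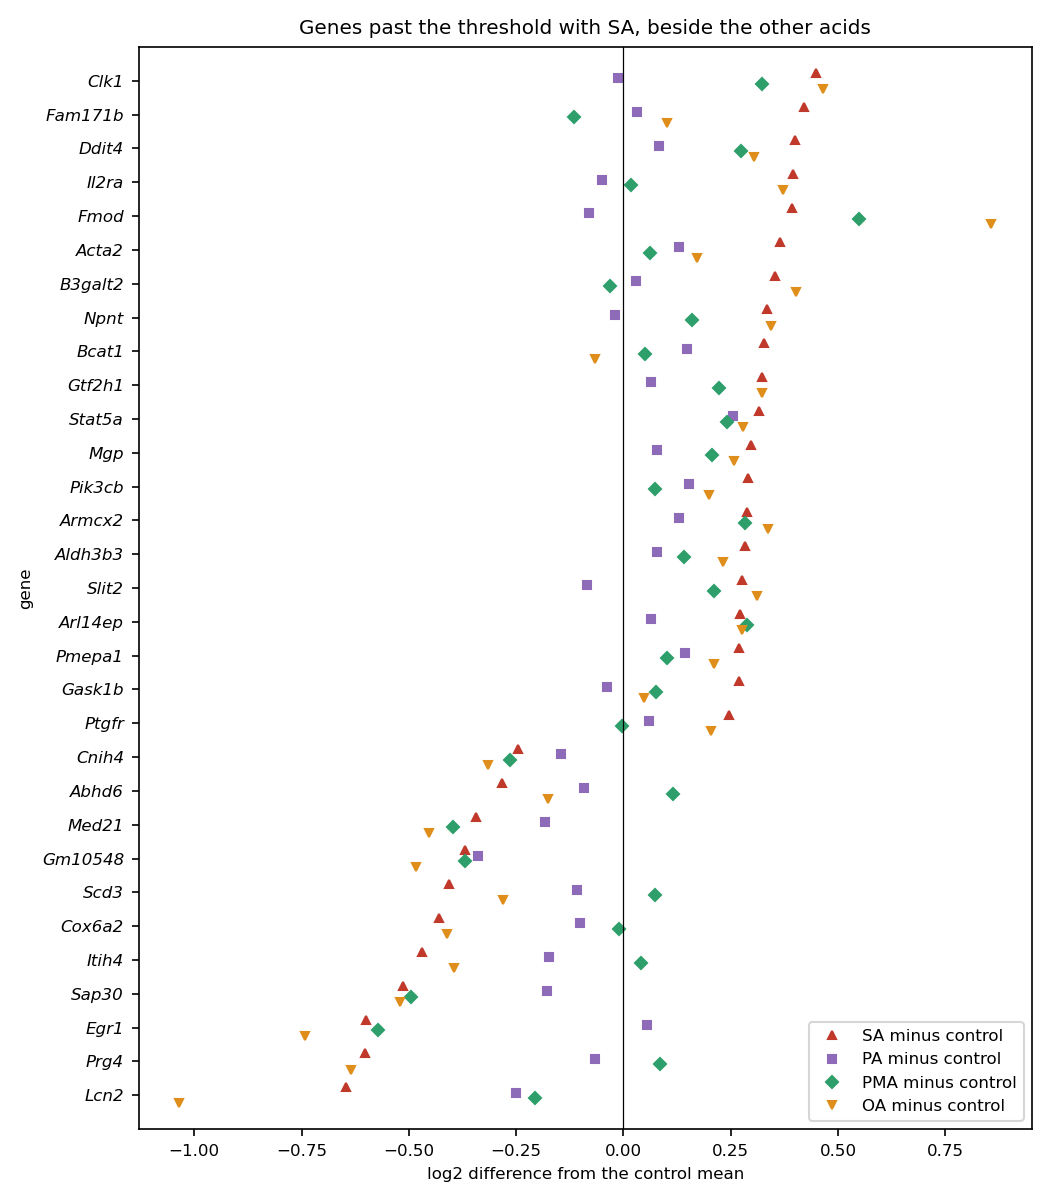
Log2 difference of each acid from the control mean for the 31 genes that passed with SA, 1 row per gene, SA as triangles and PA, PMA and OA as the other symbols. All 4 differences of a gene share the same control arrays; for Egr1 PA stands near 0 while the other 3 acids stand below -0.5.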

How the data were processed

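Total RNA (100 ng per array) was hybridised to Affymetrix Mouse Gene 1.1 ST arrays, per the labels. The authors deposited log2 values of each probe set, summarised by RMA with R 2.15.0 and affy 1.34.0, per the submitters' processing notes. Scan files were not used here. Precision is limited by how many arrays there are.

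The table held 35556 probe sets on 19 arrays, of which 21218 had 1 gene symbol in the platform annotation; the brightest of a symbol (highest mean over all arrays) stood for each of 18820 genes, with no filter on low values. In limma 3.58.1 (R 4.3.3) all 19 arrays entered 1 model of 5 group means, with plain eBayes moderation and 14 residual degrees of freedom. Contrasts were SA against control, PA, OA and PMA, two-sided, adjusted by Benjamini-Hochberg within a contrast and, for the pairs of acids, also over the 3 pairs. PA, OA and PMA against control were taken from the same fit and adjusted within a contrast. The fit was tested on simulated data.

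The comparison, its 36 gene lists (794 of 866 genes measured), the panel of 30 genes (28 measured) and the alternatives were chosen with earlier results of these data known. Genes were named by a rule: genes past the threshold, the panel, up to 4 members with the smallest p and any member past the threshold of a list described, the 5 largest differences per direction of each pair, and the 10 genes nearest the threshold. Lists got no test. The labels give no batch or date. Replicate numbers gave no sign of pairing between SA and control arrays. Deviations of same-numbered arrays of these groups from their group means correlated at -0.26, 0.07, -0.09 and 0.04 for replicates 1 to 4. Such values cannot show that the replicates were unpaired, and the other acids were not examined for this. Pairs of SA and control arrays correlated at 0.997 to 0.999, and no 2 arrays held identical values. Alternatives tried were other array sets, a filter, probe set choices, between-array normalizations, moderation of the spread, array weights, a replicate block and each array left out in turn.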

Additional observations from a re-analysis of the deposited data

Results flagged for a closer look

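In 18 of 282 groups of 4 arrays (6.38%) of the named genes, 1 array stood apart from the other 3 by Dixon's ratio (its 95% critical value). Chance gives about 1 in 20. Among the 31 genes that passed, SA replicate 2 stood apart for Fmod (6.61), Mgp (7.43) and Cnih4 (9.34), control replicate 1 for Aldh3b3 (10.6) and control replicate 2 for Prg4 (8.61). In lipid genes the array that stood apart was control replicate 2 for Fads2 (11.5), control replicate 4 for Dgat1 (11.4) and Cers4 (10.7), SA replicate 4 for Srebf1 (8.37), SA replicate 1 for Asah2 (9.16) and control replicate 1 for Cidea (5.67). In genes of the pairs of acids it was control replicate 2 for Gys2 (6.52), control replicate 1 for Hmga2 (7.67) and control replicate 3 for Agtr2 (7.70). In stress and signalling genes it was control replicate 3 for Spry2 (7.93), control replicate 1 for Chac1 (9.63), SA replicate 4 for Gclc (8.28) and SA replicate 3 for Mt1 (10.2).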

How the results depend on the processing

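No difference of a gene that passed changed sign in any of 30 settings; of 930 such results 623 stayed past the threshold and 307 did not. Egr1 and Lcn2 passed in all 30. The count for SA against control, 31 as reported, was 48 (30 higher, 18 lower) with the dimmest 1 in 3 genes by mean left out, 86 (45 and 41) after cyclic loess, 98 (63 and 35) with a trended robust spread, 228 (140 and 88) with array weights and 64 (36 and 28) with PA replicates 2 and 4 left out. SA against PA, 27 as reported, gave 2 with only the arrays of both groups, 41 with the dimmest genes left out, 43 after loess, 63 with a trended spread and 2 with PA replicates 2 and 4 left out. SA against OA gave 24 with array weights, and SA against PMA 83 with array weights and 6 with PMA replicates 1 and 4 left out. Probe sets with no or several symbols gave 0 with only the arrays of both groups, 41 with array weights and 4 with PMA replicates 1 and 4 left out. The cause was not tested. With 1 array left out the counts ran from 4 to 59 (SA against control), 9 to 499 (PA), 0 to 7 (OA), 20 to 59 (PMA) and 0 to 23 (probe sets with no or several symbols). The replicate block, although numbers gave no sign of pairing SA with control arrays, gave 23 genes for SA against control (21 of them among the 31), 20 for SA against PA, 4 for SA against OA, 37 for SA against PMA and 13 probe sets. The signal over background is not given by RMA values, so dim genes are limited to an unknown extent.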
